A study of Mus musculus with 2 samples.

Results

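The 10 genes described here write, read or steer methylation of lysine 9 of histone H3 (H3K9) or silence retroelements: Trim28, Setdb1, Atf7ip, Mphosph8, Morc3, Ehmt1, Ehmt2, Suv39h1, Suv39h2 and Cbx5. They were chosen by name, not by a measured value, from the 48550 rows of the table. All 10 names had a row. The study measured nuclear RNA by allele in F121-6 embryonic stem (ES) cells, a female hybrid line whose parents are labelled 129 and cas, the latter for Mus musculus castaneus. Each cell carries a 129 copy and a cas copy of every gene, so the comparison was between the alleles inside the same library. The samples form 1 group, a line with no treatment named in the labels, grown in serum with LIF (the cytokine that maintains self-renewal) on mouse embryonic fibroblasts stopped from dividing by mitomycin C, with 2 libraries. Their labels name no separate cultures, so p-values measure only the spread between these libraries, which may be technical. In the main fit that spread was pooled across genes with similar read levels, so a gene's own gap between libraries did not enter its p-value.

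Methylated H3K9 marks compact, silent chromatin. TRIM28 (also called KAP1) is brought to retroelements by zinc finger proteins that bind their DNA, and it recruits SETDB1, which methylates H3K9 there; ATF7IP keeps SETDB1 stable and in the nucleus. MPHOSPH8, a subunit of the HUSH complex, binds the methylated histone and helps silence long transposons, and MORC3 is an ATPase that also represses retroelements in ES cells. EHMT2 (G9a) and EHMT1 (GLP) work as a dimer that places mono- and dimethylation in gene-rich chromatin. SUV39H1 and SUV39H2 trimethylate pericentric repeats, and CBX5 (HP1 alpha) reads that mark. In mouse ES cells this machinery is known for holding endogenous retroviruses silent.

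Library 1 held 28523744 allele-assigned reads and library 2 held 31402765. Because the 129 columns hold more reads, each allele column was scaled to the typical gene by trimmed means of M values (TMM). On that scale an even gene has 55.1% of its reads from 129 in library 1 and 56.2% in library 2. Ratios are log2(129/cas) of reads scaled to counts per 1000000 (CPM) plus 0.1, so a positive value is higher from 129. Where reads are few, the added 0.1 makes the ratios smaller. Higher from 129 or from cas is thus relative to the typical gene. A gene higher from cas on this scale can hold more unscaled reads from 129. Of 12 ES cell markers 11 reached 20 allele reads per library, and Sox2 was listed at 0. Of 18 fibroblast markers 15 passed that level, and Lum and Twist1 were listed at 0. The fibroblast markers summed to 393 and 505 CPM, with 92.0% and 92.1% of their reads from 129, and the ES cell markers to 3370 and 3196 CPM. Primitive endoderm markers summed to 195 and 226 CPM (5 of 8 passed) and trophoblast markers to 24.6 and 23.1 (6 of 7 passed). Such sums depend on gene lengths and on how many positions tell alleles apart, so they do not give the proportions of the cell types. The libraries hold RNA of both the ES cells and any feeder fibroblasts that remained, and the part of the latter in the results below was not tested.

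Of the 10 genes, 9 reached 20 allele reads per library and were tested, and Suv39h1 was listed at 0. In limma across 15509 genes, 6 of the 9 were called, with an adjusted p below 0.05 for the allele difference, while 43.9% of all tested genes were. Trim28, Atf7ip, Morc3 and Ehmt2 were higher from cas (22.0% of all tested genes were), and Ehmt1 and Suv39h2 higher from 129 (21.9%); with 1 shared library size for both alleles none of the 4 was called from cas, and Trim28 and Atf7ip had positive ratios. Setdb1, Mphosph8 and Cbx5 were not called. Genes with more reads were called more often. Among the 4984 tested genes that reached 1000 reads per library, a level chosen after the data were seen, 59.7% were called. Of the 7 silencing genes at that depth 4 were called, which is near the same share. The 4984 deeper genes also leaned to cas, with 1787 calls from cas and 1190 from 129. Of the 7, Trim28, Atf7ip and Morc3 were called from cas and Ehmt1 from 129. Except for Ehmt2 and Suv39h2 the fitted sizes were 0.027 to 0.35, against a median of 0.40 over all tested genes. The median size among the 4984 genes with 1000 reads per library was 0.25. Morc3 lay above that median and the others of the 7 below it.

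**Figure D1:**
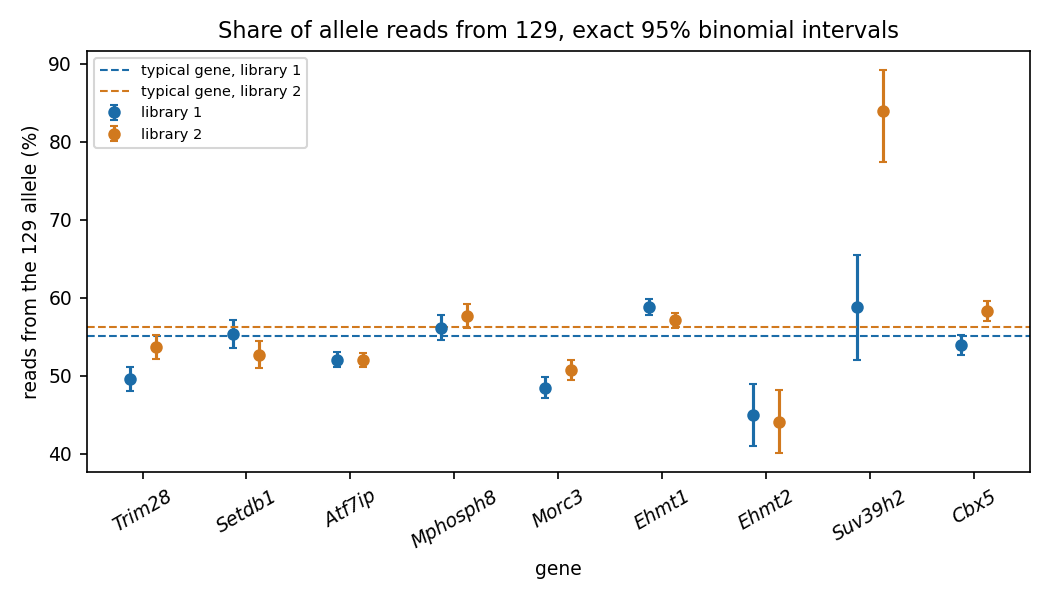
Share of allele reads from 129 (vertical axis, %) for the 9 tested genes in library 1 (blue) and library 2 (orange); points are single libraries, bars exact 95% binomial intervals, and dashed lines the share of a typical gene in each library. Ehmt2, Morc3, Atf7ip and Trim28 lie below the dashed lines in both libraries, and Suv39h2 is near the line in library 1 (58.9%) and far above it in library 2 (84.0%).

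The promoters of 4 of the genes are shown: Ehmt1 and Ehmt2 because these partners had calls in opposite directions, Morc3 for the smallest adjusted p of the tested genes, and Suv39h2 because its libraries were far apart. Each sequence is the 250 bases before the RefSeq start on build GRCm38.p6, read 5′ to 3′ on the gene's strand, and is the reference strain's sequence, in which differences between 129 and cas are not marked. Capitals mark matches on either strand to the GC box GGGCGG, the E-box CACGTG, the NRF1 motif (GCGC, any 2 bases, GCGC), CCAAT or the ETS core CCGGAAG; no base of these promoters lies in matches to more than 1 of these motifs. Ehmt2 lies at chr17:34898224-34898473 on the plus strand, Morc3 at chr16:93831871-93832120 on the plus strand, Ehmt1 at chr2:24919610-24919859 on the minus strand and Suv39h2 at chr2:3474987-3475236 on the minus strand.
Ehmt2: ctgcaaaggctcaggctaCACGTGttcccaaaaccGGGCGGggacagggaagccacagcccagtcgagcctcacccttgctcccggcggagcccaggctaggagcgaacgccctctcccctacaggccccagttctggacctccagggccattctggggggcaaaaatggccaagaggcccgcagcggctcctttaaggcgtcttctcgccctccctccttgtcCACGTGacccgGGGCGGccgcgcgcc
Morc3: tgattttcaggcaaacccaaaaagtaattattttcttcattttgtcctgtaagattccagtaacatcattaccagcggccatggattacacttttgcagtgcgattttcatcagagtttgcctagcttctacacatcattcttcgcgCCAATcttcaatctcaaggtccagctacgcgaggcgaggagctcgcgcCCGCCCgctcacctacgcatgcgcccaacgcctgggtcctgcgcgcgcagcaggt
Ehmt1: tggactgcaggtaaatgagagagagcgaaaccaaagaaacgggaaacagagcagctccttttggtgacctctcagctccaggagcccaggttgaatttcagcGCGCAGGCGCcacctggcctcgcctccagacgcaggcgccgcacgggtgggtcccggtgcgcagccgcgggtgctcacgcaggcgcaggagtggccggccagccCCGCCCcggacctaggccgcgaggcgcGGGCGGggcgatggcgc
Suv39h2: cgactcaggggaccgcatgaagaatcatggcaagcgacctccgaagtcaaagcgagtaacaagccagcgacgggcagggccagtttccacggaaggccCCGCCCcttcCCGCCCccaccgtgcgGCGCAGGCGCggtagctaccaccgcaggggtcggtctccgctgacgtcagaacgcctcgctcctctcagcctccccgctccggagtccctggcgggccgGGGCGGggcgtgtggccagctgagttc

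All 10 genes had a promoter in the RefSeq table, and each of the 10 held a GC box in these 250 bases, as did 32.7% of 32851 promoters of the same length. Ehmt2, Suv39h1 and Cbx5 had 2 promoters listed, of which only 1 was used, so motif counts for these genes depend on that choice. The NRF1 motif was in 4 of the 10 (Ehmt1, Suv39h1, Suv39h2 and Cbx5), against 4.98% of all promoters. CCAAT was in 6 of 10 (33.8% of all), the E-box in Ehmt2 and Cbx5 (6.02% of all) and the ETS core in Setdb1 (6.91% of all). The 10 promoters held 11 to 27 CpG dinucleotides, against a median of 6 (middle 50% of promoters, 2 to 16), and their GC content was 50.8% to 69.6% (median of all, 52.4%). Matches are descriptions of these letters, not binding sites, and genes higher from cas, genes higher from 129 and uncalled genes all held GC boxes.

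Trim28, the corepressor at the head of the retroelement pathway (chromosome 7, 12999114 to 13031035 on mm10), had 2053 reads of the 129 allele to 2087 of the cas allele in library 1 and 2137 to 1845 in library 2. The 129 share was 49.6% (exact 95% interval 48.1 to 51.1) and 53.7% (52.1 to 55.2), below the share of a typical gene in each library. After TMM scaling Trim28 was 1.18-fold higher from cas, at -0.23 on the log2 scale (SE 0.077, adjusted p = 0.0067 in limma), from -0.32 in library 1 to -0.15 in library 2. With deposited column totals it was -0.13 and not called (adjusted p = 0.15), and with 1 shared library size it was 0.094. The annotated span starts 25039 bp before the RefSeq start, and 19.2% of it lies under Zbtb45 on the opposite strand, which was listed at 0. Zbtb45 lies wholly inside this span, so its 0 cannot be read as absence of its RNA. Whether its reads were counted for Trim28 was not tested.

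Setdb1, the H3K9 methyltransferase recruited by TRIM28 (chromosome 3, 95323525 to 95357202), was close to even. It had 1637 reads of the 129 allele to 1321 of the cas allele in library 1 and 1754 to 1574 in library 2. The shares of 55.3% (53.5 to 57.1) and 52.7% (51.0 to 54.4) fell on and below the typical gene. The log2 ratio was -0.096 (95% interval -0.26 to 0.069, adjusted p = 0.37 in limma), near 0 in library 1 (0.012) and -0.20 in library 2. With 1 shared library size it was 0.23 and was called.

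Atf7ip, the SETDB1 partner (chromosome 6, 136506167 to 136610862), had the most reads of the 10 genes, and its shares in both libraries were the closest together. It had 5425 reads of the 129 allele to 4993 of the cas allele in library 1 and 6316 to 5826 in library 2. The 129 share was 52.0% ± 0.039 (SD, n = 2), from 52.1% and 52.0%, under the typical gene in both libraries. After TMM scaling the log2 ratio was -0.21 (SE 0.055, adjusted p = 0.00047 in limma), 1.16-fold higher from cas, with -0.18 and -0.24 in the libraries. Unscaled, more reads came from 129 in both libraries. The ratio was -0.11 with column totals (adjusted p = 0.082) and 0.12 with 1 shared library size (adjusted p = 0.059). Atf7ip2, its paralogue on chromosome 16, had -0.36 (SE 0.067), or -0.028 with 1 shared library size.

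Mphosph8, the reader in the HUSH complex (chromosome 14, 56668248 to 56697430), had 2106 reads of the 129 allele to 1645 of the cas allele in library 1 and 2314 to 1696 in library 2. Both shares, 56.1% (54.5 to 57.7) and 57.7% (56.2 to 59.2), had intervals that reached the share of the typical gene. The log2 ratio was 0.073 (95% interval -0.080 to 0.23, adjusted p = 0.47 in limma), from 0.059 and 0.088 in the libraries; with 1 shared library size it was 0.40 and was called.

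Morc3, the ATPase (chromosome 16, 93832121 to 93876073), had the smallest adjusted p of the 9 tested genes. It had 2574 reads of the 129 allele to 2738 of the cas allele in library 1 and 3247 to 3154 in library 2. The shares of 48.5% (47.1 to 49.8) and 50.7% (49.5 to 52.0) lay below the typical gene in both libraries, with intervals that did not reach it. After TMM scaling Morc3 was 1.28-fold higher from cas (log2 ratio -0.35, SE 0.067, adjusted p = 1.1e-06 in limma), with -0.39 and -0.32 in the libraries. It was also called with column totals (-0.25, adjusted p = 0.00063), while with 1 shared library size the ratio was -0.024 and not called.

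Ehmt1 and Ehmt2 encode the subunits of the same methyltransferase dimer, and their calls went in opposite directions. Ehmt1 (chromosome 2, 24789928 to 24919614) had 5279 reads of the 129 allele to 3702 of the cas allele in library 1 and 5860 to 4398 in library 2. Its shares were 58.8% (57.8 to 59.8) and 57.1% (56.2 to 58.1), and in library 2 the interval reached the typical gene. The log2 ratio of 0.13 (SE 0.058, adjusted p = 0.046 in limma) is a 1.10-fold excess from 129, near the threshold, and was 0.21 in library 1 but 0.054 in library 2. It was also positive with column totals (0.24) and with 1 shared library size (0.46).

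Ehmt2 (chromosome 17, 34898469 to 34914052) had 274 reads of the 129 allele to 336 of the cas allele in library 1 and 265 to 336 in library 2. Its shares of 44.9% (40.9 to 49.0) and 44.1% (40.1 to 48.2) were the lowest of the 9 tested genes and nearly the same in both libraries. Ehmt2 was 1.56-fold higher from cas (log2 ratio -0.64, SE 0.17, 95% interval -0.98 to -0.31, adjusted p = 0.00066 in limma), with -0.59 and -0.70 in the libraries. It kept its call with column totals (-0.54, adjusted p = 0.0054), and with 1 shared library size it was -0.32 (adjusted p = 0.12). The ratio of Ehmt1 exceeded that of Ehmt2 by 0.80 in library 1 and 0.75 in library 2. The scaling cancels in this difference between the genes, which was not tested. Around Ehmt2, the 667 tested genes of chromosome 17 had a median ratio of 0.24, and 220 of their 301 calls were higher from 129.

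Suv39h2 (chromosome 2, 3455815 to 3475031) had the fewest reads of the 9 tested genes, and its libraries were far apart. It had 126 reads of the 129 allele to 88 of the cas allele in library 1 and 136 to 26 in library 2. The shares of 58.9% (52.0 to 65.5) and 84.0% (77.4 to 89.2) have intervals that do not overlap, and the level from cas was 7.03 and 1.84 CPM while that from 129 was 8.18 and 7.49 CPM. The log2 ratio was 1.09 (SE 0.33, adjusted p = 0.0033 in limma), with 0.22 in library 1 and 1.97 in library 2. Without library 2 the ratio is thus 0.22, and the exact binomial test in library 1 gave an adjusted p of 0.38. Of 2313 other tested genes with a total within 1.5-fold of its 376 reads, 1.69% had libraries farther apart than the 1.75 log2 units of Suv39h2, and the median gap was 0.43. Its SE comes from a spread shared with genes of like abundance, not from its own gap. Its span is covered to 74.2% by genes of the opposite strand, Dclre1c (43.3%) and Gm13184 (30.9%, listed at 0). Gm13184 lies wholly inside this span, so its 0 need not mean absence of its RNA. How reads were divided between these genes and Suv39h2 was not tested.

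Suv39h1, the X-linked paralogue (chromosome X, 8061171 to 8074760), was listed at 0 for both alleles in both libraries. Its span lies to 99.0% inside Gm14820, an antisense RNA gene of the other strand that had 525 reads of the 129 allele to 858 of the cas allele in library 1 and 597 to 897 in library 2. Sox2, a factor that ES cells need, and Adnp and Asf1a, which are widely expressed, were listed at 0 as well, and each lies to 100% inside another gene. Across 722 protein-coding genes with at least 90% of the span inside genes of the opposite strand and none on the same, 92.4% were listed at 0, against 20.9% of 12192 genes without an overlap. For 599 genes covered to 90% or more by genes of their own strand the share was 89.0%. A value of 0 for Suv39h1 therefore cannot be read as absence of its RNA, and no comparison of its alleles was possible. Gm14820 itself was higher from cas, at -0.97 on the log2 scale (SE 0.12, adjusted p = 7.8e-16 in limma), and was also lower from 129 with 1 shared library size (-0.65). How its reads divide between Gm14820 and Suv39h1 was not tested. No label says whether counting used the strand. The 555 tested genes of the X chromosome had a median ratio of -0.065, beside -0.0026 over all tested genes.

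**Figure D2:**
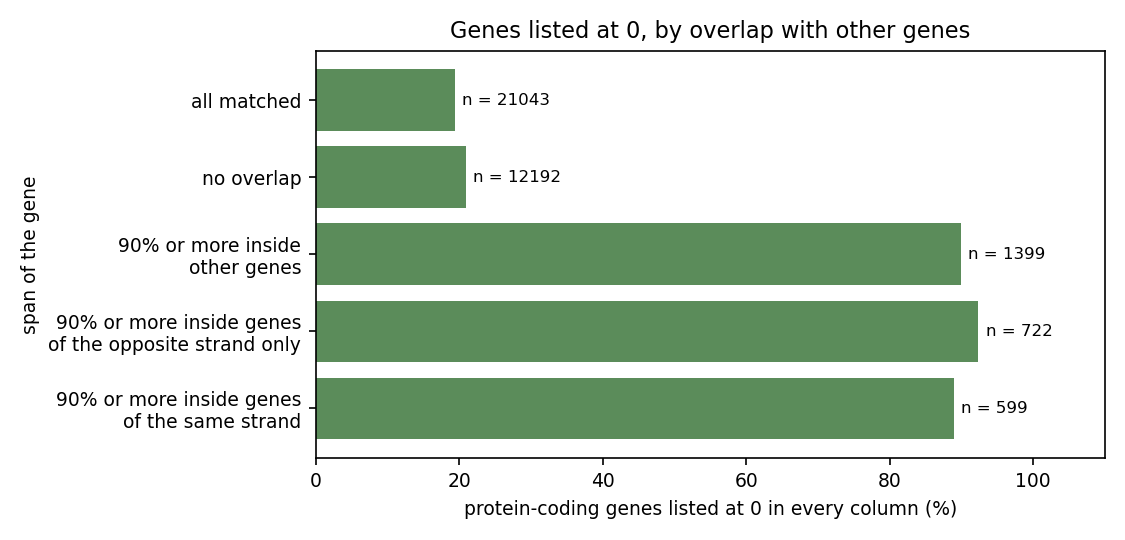
Percentage of protein-coding genes listed at 0 in every column (horizontal axis) by how much of the gene's annotated span lies inside other genes of the table; n is the number of genes in each set. Genes with at least 90% of their span inside others were listed at 0 in 89.9% of cases and genes with no overlap in 20.9%.

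Cbx5, which encodes the HP1 protein that binds methylated H3K9 (chromosome 15, 103191544 to 103239816), had 3239 reads of the 129 allele to 2761 of the cas allele in library 1 and 3194 to 2286 in library 2. Its shares of 54.0% (52.7 to 55.3) and 58.3% (57.0 to 59.6) lay on either side of the typical gene. The log2 ratio was 0.027 (95% interval -0.11 to 0.16, adjusted p = 0.78 in limma), from -0.067 in library 1 to 0.12 in library 2; with 1 shared library size it was 0.36 and was called. The other HP1 genes, Cbx1 and Cbx3, named after their values were seen, were both higher from cas at -0.27 (SE 0.099 and 0.11, adjusted p = 0.015 and 0.043), which turned to 0.054 and 0.059 with 1 shared library size. In library 1 Cbx3 was at -0.079 and in library 2 at -0.46. Neither gene was called with column totals (adjusted p = 0.15 and 0.25 in limma).

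Most of these calls depended on how the allele columns were scaled. With 1 shared library size the median of all tested genes moved to 0.32, and the ratios of the 9 genes rose by 0.32 to 0.33, so 5 of them (Setdb1, Mphosph8, Ehmt1, Suv39h2 and Cbx5) were then called from 129 and 0 from cas; at an unadjusted p under 0.05, limma also had 0 from cas. Of all calls, 50.0% were higher from 129 with TMM, 61.9% with column totals and 81.3% with 1 shared library size. The order of the 9 genes ran from Ehmt2 at the cas end, through Morc3, Trim28, Atf7ip, Setdb1, Cbx5, Mphosph8 and Ehmt1, to Suv39h2 at the 129 end; a scaling shifts all genes by nearly the same amount and leaves this order as it is. Next to each other in it, only Ehmt1 and Suv39h2 had 95% intervals that did not overlap. Overlap of intervals is not a test of a difference, and the order within these pairs was not tested. In library 1 the ratios of Ehmt1 and Suv39h2 were 0.21 and 0.22, so their separation came from library 2 (0.054 and 1.97). Without the pairing of alleles by library (no replicate block), the SEs were larger and 2 of the 9 genes, Morc3 (adjusted p = 0.038 in limma) and Ehmt2 (adjusted p = 0.042), were called. An exact binomial test in each library compared each 129 share with the TMM share of an even gene (55.1% and 56.2%), not with 50%. It therefore depends on the same scaling. The binomial test called 45.5% of all tested genes, among them Trim28, Atf7ip, Morc3 and Ehmt2 but neither Ehmt1 nor Suv39h2.

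**Figure D3:**
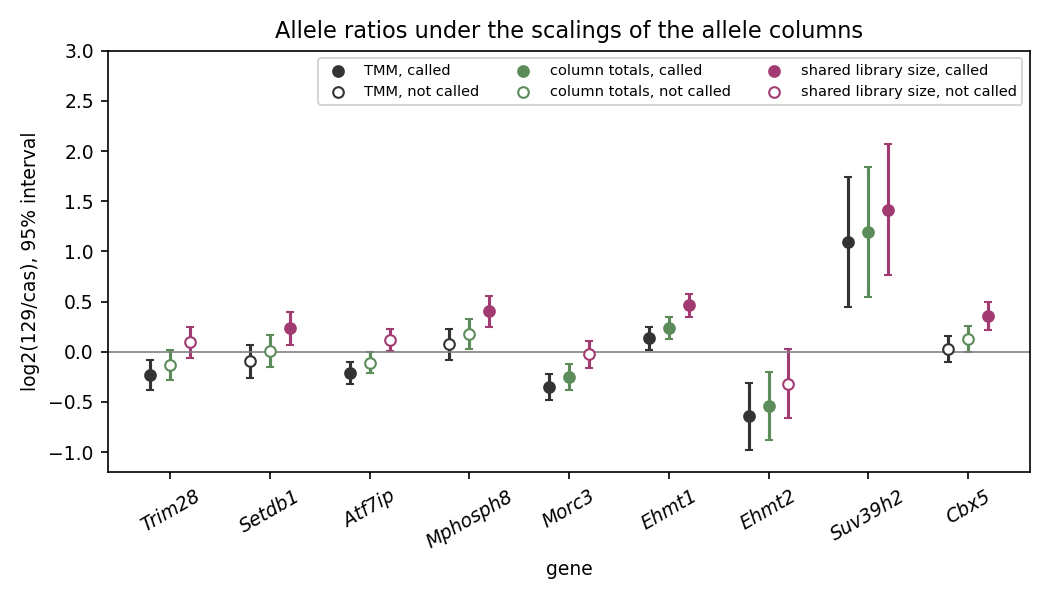
Log2(129/cas) of the 9 tested genes with 95% limma intervals under TMM (black), deposited column totals (green) and 1 shared library size for both alleles (purple); filled points were called at an adjusted p under 0.05. All points of a gene rise together from TMM to the shared size, and Ehmt1 and Suv39h2 were called under each of the 3.

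Both libraries gave similar levels for most of the genes. With both alleles together, Atf7ip had 365 and 387 CPM, Ehmt1 315 and 327, Setdb1 104 and 106, and Mphosph8 132 and 128. Morc3 had 186 and 204, Cbx5 210 and 175, Trim28 145 and 127 and Ehmt2 21.4 and 19.1. Suv39h2 had 5.16 CPM in library 2, which is 0.688 times its level in library 1. These levels depend on each gene's length and on how many positions tell its alleles apart, and the lengths in the table do not belong to the genes beside them, so levels of different genes were not compared.

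The ratios were set beside those of the nearest tested gene on each side. Cbx5 and the splicing factor gene Hnrnpa1 start 615 bp apart on opposite strands, and both were close to even (0.027, SE 0.068, and 0.013, SE 0.093). Morc3 was higher from cas while the genes beside it on the same strand, Dopey2 (0.089, SE 0.093) and the chromatin assembly gene Chaf1b (-0.057, SE 0.091), were not called. Atf7ip lay between Plbd1, also higher from cas (-0.40, SE 0.17, adjusted p = 0.039), and the glutamate receptor gene Grin2b, higher from 129 (1.29, SE 0.19, adjusted p = 5.6e-11); Plbd1 was at -0.070 with 1 shared library size. Ehmt1 and its calcium channel neighbour Cacna1b, 156 kb away, had calls in opposite directions (0.13, and -0.51, SE 0.086), and Arrdc1 on the other side had 0.070 (SE 0.31).

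The neighbours of Ehmt2 had few reads and were not called: Slc44a4 had -0.60 (SE 0.54) from 40 and 83 reads and Nelfe 0.18 (SE 0.52) from 50 and 81. Suv39h2 lay between Dclre1c, a DNA repair nuclease gene (0.035, SE 0.11), and Hspa14 (0.16, SE 0.12), which were both not called. Trim28 had Zfp446 (-0.59, SE 0.42) and Chmp2a (-0.25, SE 0.24) beside it, Setdb1 had Cers2 (-0.35, SE 0.36) and Gm4349 (0.58, SE 0.49), and Mphosph8 had Parp4 (0.18, SE 0.16) and Gm16973 (-0.47, SE 0.23), none of them called. Smug1 beside Cbx5 had -0.10 (SE 0.48), and Was beside Suv39h1 -0.035 (SE 0.74).

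**Figure D4:**
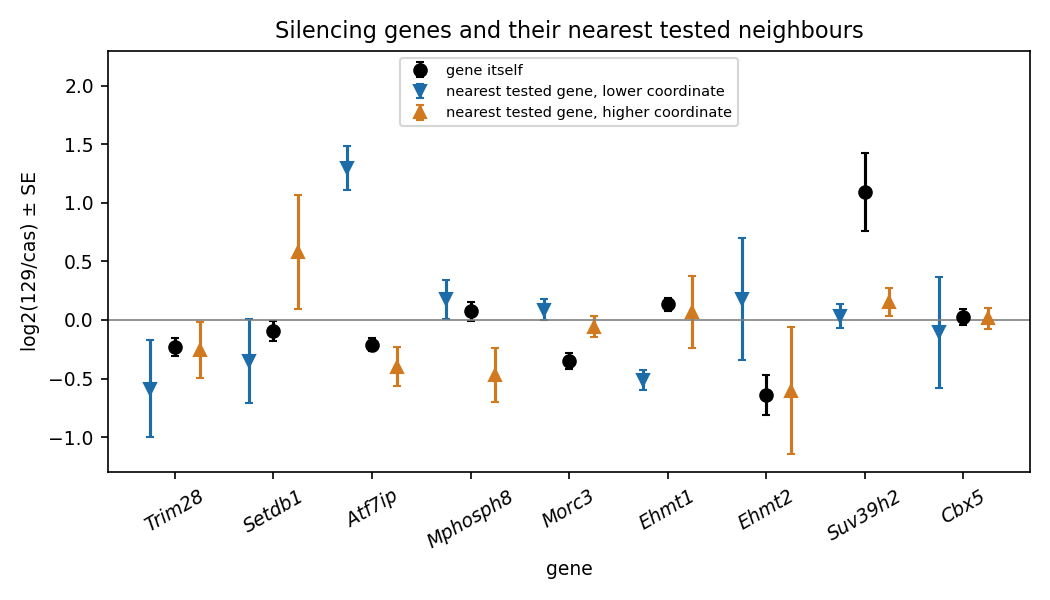
Log2(129/cas) with SE for the 9 tested silencing genes (black circles) and the nearest tested gene at lower (blue) and higher (orange) coordinates. Grin2b beside Atf7ip (1.29) and Cacna1b beside Ehmt1 (-0.51) stand apart from the gene they flank, while Hnrnpa1 (0.013) sits beside Cbx5 (0.027).

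A list of 58 other genes of H3K9 methylation and retroelement silencing was described in the same fit, and 54 were tested. Of these, 11 were higher from 129, 20 higher from cas and 23 were not called, which is 57.4% called against 43.9% of all tested genes. Most of the 54 reached 1000 reads per library. At that depth 59.7% of tested genes were called, 1787 from cas and 1190 from 129, so the share and lean of the list are near those of deeper genes. The median ratio of the 54 genes was -0.088 (-0.066 in library 1, -0.12 in library 2), beside -0.096 for the 9 silencing genes and -0.0026 for all tested genes. Scaled by 1 shared library size, the medians of the 54 and the 9 genes were 0.24 and 0.23 against 0.32 for all, and 33 of the 54 were called from 129 and 3 from cas. The 4 untested genes were Adnp and Asf1a, listed at 0, Zfp644, which had 0 and 7 reads with 99.1% of its span inside other genes, and the demethylase gene Kdm4d, with 8 and 13 reads.

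The largest ratios belonged to 2 H3K9 methyltransferases of the PRDM family. Mecom (PRDM3) had 1794 reads from 129 and 144 from cas in library 1, and 2636 and 261 in library 2, a log2 ratio of 3.15 (SE 0.12, adjusted p = 3.75e-146 in limma). Prdm16 had 1563 and 216 in library 1, and 1943 and 218 in library 2, a ratio of 2.67 (SE 0.12, adjusted p = 7.7e-101). Their 129 shares over both libraries were 91.8% ± 1.12 and 88.9% ± 1.45 (SD, n = 2), beside 92.0% and 92.1% for the summed fibroblast markers in libraries 1 and 2; the part of feeder RNA in them was not tested. The other methyltransferases of the list, Setdb2 (-0.66, SE 0.13, made of -1.02 and -0.30) and Prdm2 (-0.20, SE 0.062), were higher from cas, of which Prdm2 turned to 0.12 with 1 shared library size.

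Genes of SUMO conjugation, which TRIM28 uses to recruit SETDB1, went both ways. Of 8 tested, 4 favoured 129 and 2 favoured cas, while 2 were not called; with 1 shared library size the counts were 6 and 1. Uba2, a subunit of the SUMO-activating enzyme, had 1669 reads from 129 and 629 from cas in library 1, and 2157 and 939 in library 2 (log2 ratio 0.97, SE 0.093), and its partner Sae1 had 0.41 (SE 0.066). Sumo3 had 0.66 (SE 0.16) whereas Sumo2 had -0.72 (SE 0.15), with -0.44 and -1.01 in the libraries. The protease gene Senp6 had -0.37 (SE 0.060), or -0.043 with 1 shared library size. SUMO genes are known to have processed pseudogenes, and how reads were divided between such copies was not tested.

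The 9 tested genes grouped as partners of TRIM28 include Atf7ip2, a paralogue of the SETDB1 partner Atf7ip. Of the 9, 5 were higher from cas, with Atf7ip2 among them, 1 from 129 and 3 were not called. With 1 shared library size 5 were called, each from 129. Zfp932 (-0.47, SE 0.13) and Zfp809 (-0.35, SE 0.082, made of -0.54 and -0.17), zinc finger genes known to target retroviruses, were higher from cas, at -0.14 and -0.023 with 1 shared library size, and Zfp57, which guards imprinted regions, was higher from 129 (0.60, SE 0.19). Of 9 tested H3K9 demethylases, 2 were higher from cas, 1 from 129 and 6 were not called, whereas with 1 shared library size 6 were called, each from 129. Jmjd1c had 15515 reads of 129 to 6568 of cas in library 1 and 15590 to 6570 in library 2 (0.91, SE 0.046), and Kdm4c, with 28174 and 31604 reads, had -0.073 (SE 0.041) without a call. Jmjd1c and Sumo3 lie on chromosome 10, where 708 tested genes had a median of 0.68 and 428 of 466 calls were higher from 129.

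Genes of histone H3.3 and of histone chaperones mostly had small ratios. Atrx, which with DAXX places histone H3.3 at silent repeats, had the most reads of the list (40665 and 49319) and a ratio of -0.16 (SE 0.037), which turned to 0.17 with 1 shared library size. With 138 and 177 reads, Daxx had a ratio of 0.84 (SE 0.35), made of 0.38 and 1.30. Its call (adjusted p = 0.040 in limma) ended without the read filter (0.067), with a filter of 100 reads (0.056) and with no replicate block (0.12). Asf1b had -0.97 (SE 0.28), from 72 reads of 129 against 102 of cas and 114 against 198. The 8 tested genes of this group include H3f3a and H3f3b, which encode histone H3.3 and not a chaperone. Of the 8, 2 were higher from cas, 1 from 129 and 5, with H3f3a and H3f3b among them, were not called. With 1 shared library size 1 was called from cas and 6 from 129, again with H3f3a and H3f3b among the latter.

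The remaining groups held 2 to 5 tested genes each. Cdyl, a partner of the EHMT dimer, had -0.35 (SE 0.046), with -0.021 under 1 shared library size. Among 5 tested HUSH and MORC genes, Morc1 was called at -0.097 (SE 0.042, adjusted p = 0.045 in limma). A pseudocount of 1 CPM (adjusted p = 0.055) and a filter of 100 reads (adjusted p = 0.13) each ended that call, and the ratio was 0.23 with 1 shared library size. Chd4, the remodeller of the ADNP complex, had 0.19 (SE 0.052) and Pogz -0.38 (SE 0.089, -0.048 with 1 shared library size). Suv420h1 and Suv420h2, which methylate histone H4 at silent repeats, were both higher from cas (-0.41, SE 0.17, and -0.37, SE 0.14), at -0.087 and -0.042 with 1 shared library size. Neither was called under that scaling or with column totals (adjusted p = 0.14 and 0.12 in limma), and Suv420h1 was also not called without the read filter (0.056), with a filter of 100 reads (0.062) or with no replicate block (0.18). Hells, the remodeller that aids DNA methylation of repeats, had -0.091 (SE 0.052) and was not called.

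**Figure D5:**
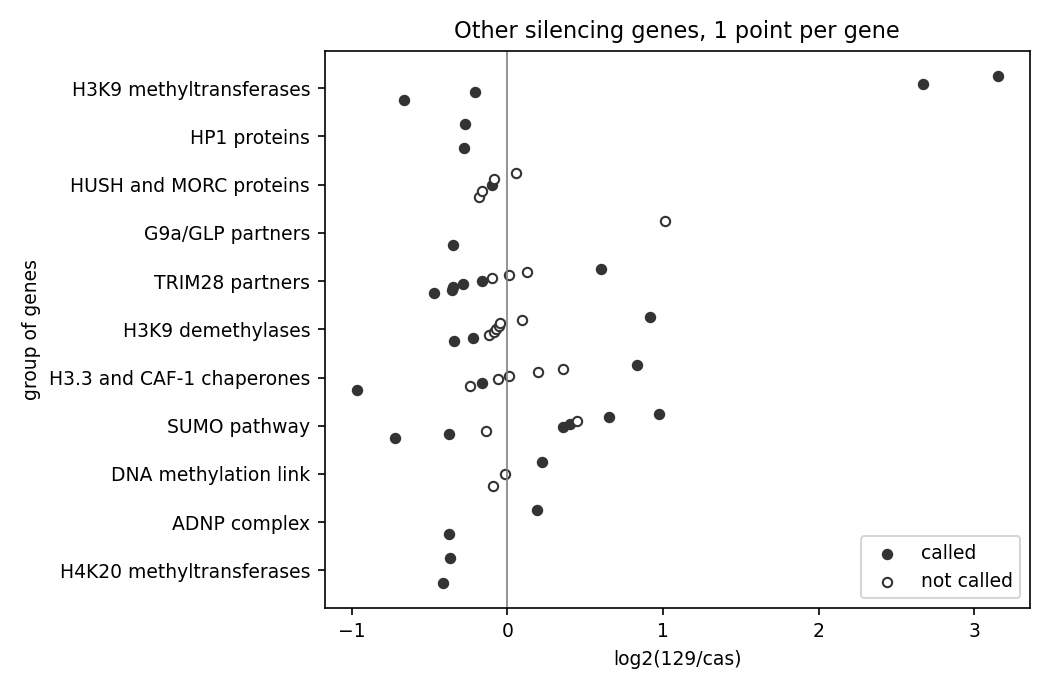
Log2(129/cas) of 54 other silencing genes by group, 1 point per gene, filled where called in limma at an adjusted p under 0.05; vertical offsets within a group only separate points. Mecom and Prdm16 stand apart at 3.15 and 2.67, and the other points lie between -0.97 and 1.01.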

How the data were processed

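Total nuclear RNA of hybrid ES cells was sequenced in 2 libraries as 100 bp paired-end reads, and re-sequenced reads were merged with earlier ones, per the labels' protocols. Bowtie2 and the build mm10 are named per the submitters' processing notes; no source used here gives the read counter, SNP set or annotation, or says whether strand was used. The authors deposited RPKM in columns that they named as counts. Dividing value times row length by the smallest step of its column gave whole allele reads (100% of values within 0.01 read). The row lengths are not those of the genes beside them (67 of 48550 within 2 bp of the GENCODE M21 span), which cancels within a gene. Rows were matched to GENCODE M21 by name, chromosome and strand (95.6%).

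Alleles were paired by library, since both are read from 1 RNA sample. limma 3.58.1 (R 4.3.3) with trended variances was fitted to log2(CPM + 0.1) after TMM scaling, with library as a block, for genes with 20 or more allele reads per library; 1570 Y chromosome rows were left out because the cells are female. In this fit each SE rests on a variance pooled from genes with similar read levels, and a gene's own gap between the 2 libraries does not enter it. A small SE or p therefore need not mean that the libraries were close for that gene. Setdb2, with libraries 0.71 log2 units apart, had an SE of 0.13, and Atf7ip, 0.066 apart, had 0.055. A call is a Benjamini-Hochberg adjusted p under 0.05 over all 15509 tested genes. The code was tested on simulated data in which few genes were changed, so that test does not bear on the choice of scaling. Exact binomial (Clopper-Pearson) intervals of 95% cover counting error only. The members and lists were chosen with earlier results of these data known. Named genes were all 10 members, their nearest tested neighbours and, of the list of 58, up to 6 called genes per direction, by size of ratio (100 reads per library or more, same direction in both libraries), and 6 more with the most reads; others named were chosen after their values were seen. Alternatives were 2 other scalings, a pseudocount of 1 CPM, 2 other read filters, no block, voom weights and each library alone. A binomial test in each library, against the TMM share of an even gene, was a further alternative.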

Additional observations from a re-analysis of the deposited data

How the results depend on the processing

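Of the 9 tested silencing genes, 6 were called with a pseudocount of 1 CPM, with voom weights, without a read filter and with a filter of 100 reads, 4 from cas and 2 from 129 each time. With 1 shared library size 0 were called from cas and 5 from 129; Trim28 (0.094), Setdb1 (0.23) and Atf7ip (0.12) turned positive, Morc3 (-0.024) and Ehmt2 (-0.32) lost the call, and Mphosph8 (0.40) and Cbx5 (0.36) gained one. With column totals 2 were called from cas, Trim28 (-0.13) and Atf7ip (-0.11) lost the call, and Setdb1 was 0.0074. With no replicate block (alleles not paired by library) 2 were called, 2 from cas and 0 from 129, and Trim28 (-0.23), Atf7ip (-0.21), Ehmt1 (0.13) and Suv39h2 (1.09) lost the call. The exact binomial test, against the TMM share of an even gene, called 0 from 129. At an unadjusted p under 0.05, limma had 0 from cas with 1 shared library size and 0 from 129 with no replicate block. The medians turned positive with 1 shared library size (0.23 for the 9 genes, 0.24 for the 54 others) and with column totals (0.0074 and 0.015).

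Over all genes, no replicate block left 3954 calls, 2150 from 129 and 1804 from cas, and 1 shared library size gave 6505 from 129 and 1492 from cas. Of the 54 other genes, no replicate block called 12, 6 from 129 and 6 from cas, 1 shared library size called 33 from 129 and 3 from cas, and column totals called 10 from cas. With 1 shared library size Atrx (0.17), Kdm4c (0.26), Morc1 (0.23) and Hells (0.24) turned positive, and with column totals Kdm4c (0.031), Morc1 (0.0067) and Hells (0.013). The shifts of scaling follow from its construction. A single library has no residual degrees of freedom, so leaving one out gave ratios and no calls; the ratios of the 9 genes in each library are given with each gene.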
